A study of Homo sapiens with 6 samples.

Results

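The transcripts of 10 integrin subunits of epithelial cells were followed in UWB1.289 cells, an ovarian cancer line deficient in the DNA repair gene BRCA1, after treatment with Olaparib, an inhibitor of poly(ADP-ribose) polymerase. The members were chosen by symbol from a fixed list (ITGA2, ITGA3, ITGA5, ITGA6, ITGAV, ITGB1, ITGB4, ITGB5, ITGB6 and ITGB8), and each symbol matched 1 Ensembl identifier. They are 10 of the 63677 genes counted and 10 of the 26 integrin genes, which comprise 18 alpha and 8 beta subunits. Cells of the Olaparib group (n = 3) received the drug for 24 h, and cells of the DMSO group (n = 3) received the solvent alone for the same time. The sample labels and the methods give a dose of 4 µM, while the text describing the deposited design gives 10 µM. All 6 samples came from this single line, whose genotype the labels give as WT, in MEGM-based medium with serum, and cells were detached with trypsin before lysis.

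Integrins are receptors made of 1 alpha and 1 beta subunit that hold cells to the extracellular matrix and signal from it. The beta1 subunit (ITGB1) pairs with many alpha subunits, among them the collagen receptor chain ITGA2, the laminin receptor chains ITGA3 and ITGA6 and the fibronectin receptor chain ITGA5. ITGB4 pairs with ITGA6 alone, in the hemidesmosomes that anchor epithelium to the basement membrane. ITGAV pairs with ITGB5, ITGB6 and ITGB8, receptors for ligands that carry an RGD motif. The pairs with ITGB6 and ITGB8 are also known to activate latent TGF-beta.

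The integrin transcripts differed little between Olaparib and DMSO, and in both directions. ITGA2 rose by 16.1% and ITGB6 by 8.45%, whereas ITGA3 fell by 7.84%. The other 7 members did not pass the test, which was edgeR's quasi-likelihood F test at a false discovery rate of 0.05 (Benjamini-Hochberg) over the 21729 genes with more than 10 counts in total. All 10 members passed that filter. The 3 called members make up 30.0% of the list, against 3.36% of all genes tested. The list was chosen with earlier results of these data known, so the difference between these shares is not a test of it. Calls are more frequent among abundant genes, and of the genes with a mean of at least 1000 normalized counts, as every member had, 5.88% were called (4.16% higher and 1.72% lower, with this floor chosen after the members' levels were seen). By direction, 2.15% of all genes were called higher and 1.21% lower. When a change of over 1.2-fold in either direction, 0.26 in log2 units, was required as well, 0 members were left (0 also with DESeq2 and 0 with limma voom, and 5 members had an unadjusted p under 0.05 in edgeR's test), against 1.21% of all genes. The median log2 fold change of the 10 members was 0.027, beside -0.0042 over all genes tested, and it was 0.015 without Olaparib replicate 1. Groups of 3 samples did not overlap for 4 members (ITGA2, ITGA3, ITGA6 and ITGB6), and over all genes this was so for 19.3%. By direction 3 of the 10 were higher without overlap and 1 lower, against 10% and 9.29% of all genes. In bulk RNA such as this, fewer cells with a transcript and less of it per cell cannot be told apart.

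The 6 libraries held between 35360458 and 39640775 counts. The 10 members together took 0.261% to 0.270% of them, and each member had between 8235 and 129319 counts over the 6 libraries. Replicate 1 of each group stood apart from its fellows, with a chi-square per degree of freedom over 15525 genes of 3.80 and 3.35 for Olaparib and 4.02 and 4.11 for DMSO, against 2.28 and 1.81 between the other replicates. Of the 10 members, 5 were highest in Olaparib replicate 1 (ITGA2, ITGA6, ITGAV, ITGB1 and ITGB6). Without that library the log2 fold change was 0.17 for ITGA2 (edgeR adjusted p = 0.00431) and 0.099 for ITGB6 (edgeR adjusted p = 0.0538), and without DMSO replicate 1 it was 0.24 (edgeR adjusted p = 4.5e-04) and 0.14 (edgeR adjusted p = 0.0131). Of 11 carcinoma markers, 10 had at least 10 counts in every library, and the summed level of the 11 was 13017 to 13690 CPM after Olaparib and 13053 to 13297 CPM after DMSO. WT1, a marker of serous ovarian carcinoma, was the exception with 8 counts in total. PAX8, a Müllerian transcription factor, was called higher (log2 fold change 0.10, edgeR adjusted p = 0.0399). Of the defining markers of other cell types, PECAM1 and LUM were at 0 in every library, whereas the endothelial cadherin CDH5 stood at 39.7 to 44.7 CPM, above the epithelial cadherin CDH1 (34.5 to 39.5 CPM). The 3 leukocyte markers summed to 2.04 to 2.37 CPM after Olaparib and at most 2.32 after DMSO, and the 3 fibroblast markers to at most 0.0818 and 0.113 CPM. The 3 endothelial markers summed to 41.6 to 42.9 CPM after Olaparib and 43.1 to 45.9 after DMSO, almost all of it CDH5. VWF, another endothelial marker, was called higher (67.4 ± 3.17 normalized counts under Olaparib, against 41.8 ± 1.96 under DMSO, SD, n = 3 each, log2 fold change 0.68, edgeR adjusted p = 0.0106). The part of these markers in the integrin results was not tested.

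**Figure D1:**
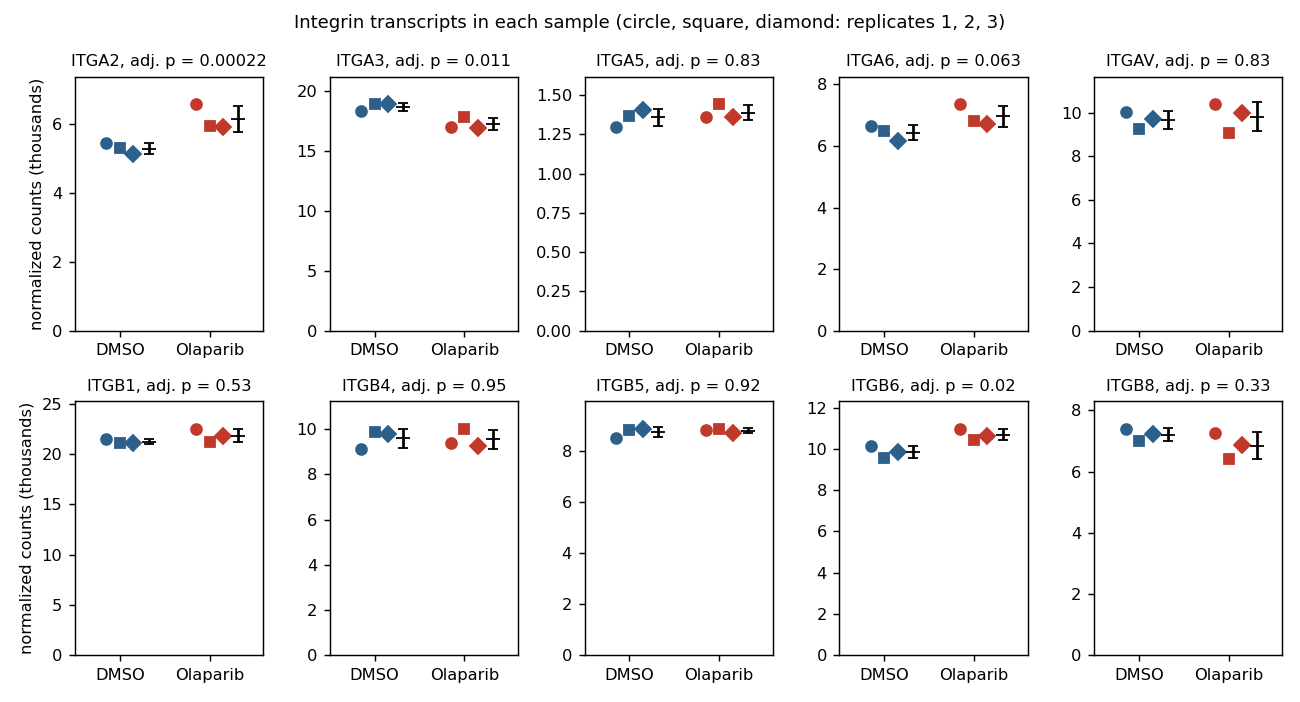
Normalized counts (shown divided by 1000, axes from 0) of the 10 integrin members in each DMSO (blue) and Olaparib (red) sample, with circle, square and diamond for replicates 1, 2 and 3 and a black bar for the mean and SD (n = 3). The groups are separate for ITGA2, ITGA3, ITGA6 and ITGB6 and overlap for the other 6 members.

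The sequence before the transcription start was set side by side for ITGA2 and ITGB6, the members that rose. RefSeq's promoter table (GRCh38.p14) held 8 of the 10 members and not ITGA3 or ITGB4. The first 250 bases upstream of the RefSeq start were searched on both strands for 4 short motifs, namely the AP-1 site as TGANTCA, the SP1 site as GGGCGG, the TATA box as TATAAA and the TEAD site as GGAATG, and none of these lies within another. Below, bases that GENCODE places inside the gene are left off, 12 for ITGA2 and 41 for ITGB6, and capitals mark motif matches, 5′ to 3′ on the strand of the gene (plus for ITGA2 at chr5:52989102-52989339, minus for ITGB6 at chr2:160200314-160200522).
ITGA2: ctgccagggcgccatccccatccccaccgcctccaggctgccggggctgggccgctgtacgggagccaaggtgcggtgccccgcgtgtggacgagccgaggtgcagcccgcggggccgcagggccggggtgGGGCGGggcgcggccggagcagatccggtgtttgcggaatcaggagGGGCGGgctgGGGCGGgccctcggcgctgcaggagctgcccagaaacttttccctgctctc
ITGB6: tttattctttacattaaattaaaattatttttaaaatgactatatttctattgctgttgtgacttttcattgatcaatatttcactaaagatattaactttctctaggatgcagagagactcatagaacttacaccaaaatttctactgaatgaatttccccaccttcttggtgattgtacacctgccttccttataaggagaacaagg
These stretches had little in common. The 250 bases before ITGA2 were 76.4% G and C, above 91.9% of the 35116 promoters in the table, and held 4 matches to GGGCGG, of which 3 are in the printed part and the fourth ended 4 bases before the start. The 250 bases before ITGB6 were 30.0% G and C, above 1.52% of the promoters, and held 0 matches to the 4 motifs. Of all promoters of that length, 42.6% held GGGCGG, 6.57% TGANTCA, 10.7% TATAAA and 11.9% GGAATG. A match describes letters in the window and shows no binding.

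Among the alpha subunits that pair with beta1, 1 rose and 1 fell. ITGA2 (ENSG00000164171, chromosome 5, 52989340 to 53094779 on GRCh38), the alpha chain of the main epithelial collagen receptor, had 6578, 5934 and 5920 normalized counts under Olaparib, against 5440, 5293 and 5137 under DMSO. Every Olaparib sample lay above every DMSO sample, and Olaparib replicate 1 stood above its fellows. The means were 6144 ± 376 and 5290 ± 152 (SD, n = 3 each), a difference on the log2 scale of 0.22 (standard error, SE, 0.036, edgeR adjusted p = 2.2e-04). The gene ranked 108 of the 21729 by p value. The call held with each sample left out in turn, at log2 fold changes of 0.17 to 0.24 and adjusted p values up to 0.00879 from the same test. Its neighbour ITGA1, another collagen receptor chain whose gene ends 30.1 kb before that of ITGA2, had 87.1 ± 13.8 normalized counts under Olaparib, against 77.9 ± 9.63 under DMSO (edgeR adjusted p = 0.668).

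ITGA3 (ENSG00000005884, chromosome 17, 50055968 to 50090481), whose product forms a laminin receptor with beta1, went the other way. It had 17026, 17816 and 16913 normalized counts under Olaparib, against 18332, 18909 and 18915 under DMSO. The groups did not overlap, with the highest Olaparib sample (replicate 2) below the lowest DMSO sample (replicate 1). The mean fell from 18719 ± 335 to 17251 ± 492 (SD, n = 3 each), a difference on the log2 scale of -0.12 (SE 0.028, edgeR adjusted p = 0.0109). With 1 sample left out the log2 fold change stayed between -0.14 and -0.11, but the call was kept in only 3 of the 6 runs. The adjusted p from the same test was 0.105 without Olaparib replicate 3, 0.0849 without DMSO replicate 2 and 0.0633 without DMSO replicate 3.

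ITGA6 (ENSG00000091409, chromosome 2, 172427354 to 172506459), a laminin receptor chain that pairs with beta1 or beta4, did not pass the test. It had 7355, 6823 and 6699 normalized counts under Olaparib, against 6638, 6484 and 6166 under DMSO. The groups were separate, though by a narrow gap between Olaparib replicate 3 and DMSO replicate 1. The log2 fold change was 0.11 (95% interval 0.044 to 0.19, edgeR adjusted p = 0.0626). On the opposite strand, exons of 3 noncoding genes overlap 5.25% of its exonic bases, and the most counted of them, PDK1-AS1, had 498 counts in all, 1.24% of those of ITGA6.

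ITGA5 (ENSG00000161638, chromosome 12, 54395261 to 54419266) encodes the alpha chain of the classical fibronectin receptor. With 1357, 1441 and 1362 normalized counts under Olaparib, against 1298, 1369 and 1405 under DMSO it was the least counted member, and its groups overlapped (log2 fold change 0.030, 95% interval -0.061 to 0.12, edgeR adjusted p = 0.826). Their common partner ITGB1 (ENSG00000150093, chromosome 10, 32887273 to 33005792) had the most counts of the 10. It stood at 22563, 21257 and 21789 normalized counts under Olaparib, against 21541, 21086 and 21119 under DMSO. DMSO replicate 1 lay above Olaparib replicate 2, so the groups overlapped (log2 fold change 0.042, 95% interval -0.014 to 0.098, edgeR adjusted p = 0.527). A processed pseudogene, ITGB1P1, that could share its reads had 63 counts in total, against 129319 for ITGB1.

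Of the 3 member partners of ITGAV (ITGB5, ITGB6 and ITGB8), ITGB6 passed the test; whether its change differed from that of ITGB5 or ITGB8 was not tested. ITGB6 (ENSG00000115221, chromosome 2, 160099667 to 160200313), an epithelial subunit that is low in many resting tissues and common in carcinomas, had 10993, 10445 and 10650 normalized counts under Olaparib, against 10136, 9586 and 9869 under DMSO. All Olaparib samples were above all DMSO samples, the nearest pair being Olaparib replicate 2 and DMSO replicate 1. The mean rose from 9864 ± 275 to 10696 ± 277 (SD, n = 3 each), a difference on the log2 scale of 0.12 (SE 0.030, edgeR adjusted p = 0.0198). The call did not survive the loss of Olaparib replicate 1 (adjusted p = 0.0538 from the same test), Olaparib replicate 3 (0.0705), DMSO replicate 2 (0.186) or DMSO replicate 3 (0.0888).

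ITGB8 (ENSG00000105855, chromosome 7, 20330702 to 20415754), the other subunit that serves TGF-beta activation, had 7279, 6406 and 6860 normalized counts under Olaparib, against 7406, 6992 and 7216 under DMSO. Olaparib replicate 1 lay above 2 of the DMSO samples, and the log2 fold change was -0.073 (95% interval -0.15 to -3.1e-04, edgeR adjusted p = 0.334). Leaving out that sample gave -0.12 (edgeR adjusted p = 0.0498). ITGB5 (ENSG00000082781, chromosome 3, 124761948 to 124901418), part of a vitronectin receptor, varied least. Its samples lay between 8678 and 8859 normalized counts under Olaparib, against between 8497 and 8859 under DMSO (log2 fold change 0.010, 95% interval -0.049 to 0.070, edgeR adjusted p = 0.923). ITGAV itself (ENSG00000138448, chromosome 2, 186590010 to 186680901) had 10379, 9077 and 9993 normalized counts under Olaparib, against 10031, 9248 and 9693 under DMSO. Both the highest and the lowest sample were Olaparib samples, so the groups overlapped throughout (log2 fold change 0.024, 95% interval -0.050 to 0.097, edgeR adjusted p = 0.834).

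ITGB4 (ENSG00000132470, chromosome 17, 75721328 to 75757818), the hemidesmosome subunit with a long cytoplasmic tail, had 9405, 10028 and 9242 normalized counts under Olaparib, against 9127, 9884 and 9800 under DMSO. The groups overlapped and the means, 9558 ± 415 and 9604 ± 415, nearly coincided (log2 fold change -0.0071, 95% interval -0.075 to 0.060, edgeR adjusted p = 0.953). For 9 of the 10 members the 95% interval of the log2 fold change lay within log2(1.2), which is 0.26, on either side of 0. ITGA2, whose interval was 0.14 to 0.29, was the exception.

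**Figure D2:**
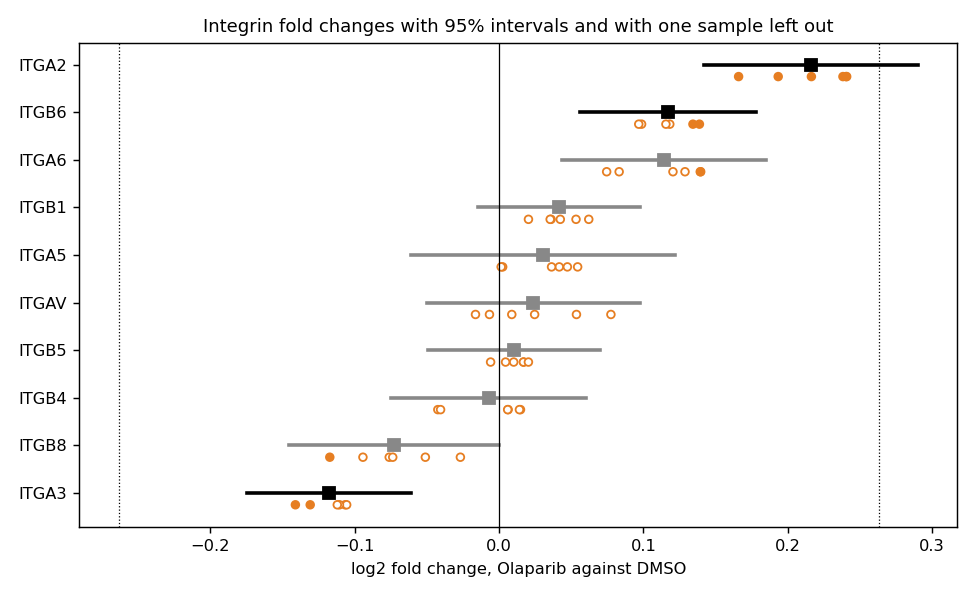
Log2 fold change of each integrin member (Olaparib against DMSO, squares, black where the adjusted p was under 0.05 and grey otherwise) with its 95% interval (line), and below it the 6 values obtained with 1 sample left out (circles, filled where the adjusted p was under 0.05). Dotted lines mark log2(1.2) on either side of 0, and ITGA2 is the member whose 6 circles are all filled.

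Levels of different genes were compared as TPM, a count per gene length scaled to a common total, computed from the counts and the summed exonic length of each gene. In DMSO cells ITGA3 stood highest (185 to 188 TPM in the 3 samples, mean 186), followed, as mean ± SD of n = 3, by ITGB6 (166 ± 6.49), ITGB1 (142 ± 3.71), ITGB4 (138 ± 4.30), ITGB5 (130 ± 1.10), ITGA6 (93.9 ± 4.82), ITGA2 (65.4 ± 2.82), ITGAV (48.7 ± 2.48), ITGB8 (46.4 ± 1.84) and ITGA5 (17.9 ± 0.463). Of these neighbours, ITGB1 and ITGB4 overlapped in the DMSO samples, as did ITGAV and ITGB8. After Olaparib, ITGB6 (180 ± 5.21 TPM) had a higher mean than ITGA3 (171 ± 4.78), but the samples overlapped and ITGA3 was the higher in replicate 2 (176 and 175 TPM). This order depends on which length is used, because the annotated exons of a gene sum to more than 1 transcript. With the longest transcript as the length, ITGB1 came first in both conditions (271 ± 6.71 TPM in DMSO), ITGA3 second (245 ± 1.95) and ITGB6 next (152 ± 5.70), and ITGAV (87.0 ± 4.29) stood above ITGA6 (79.2 ± 4.00).

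**Figure D3:**
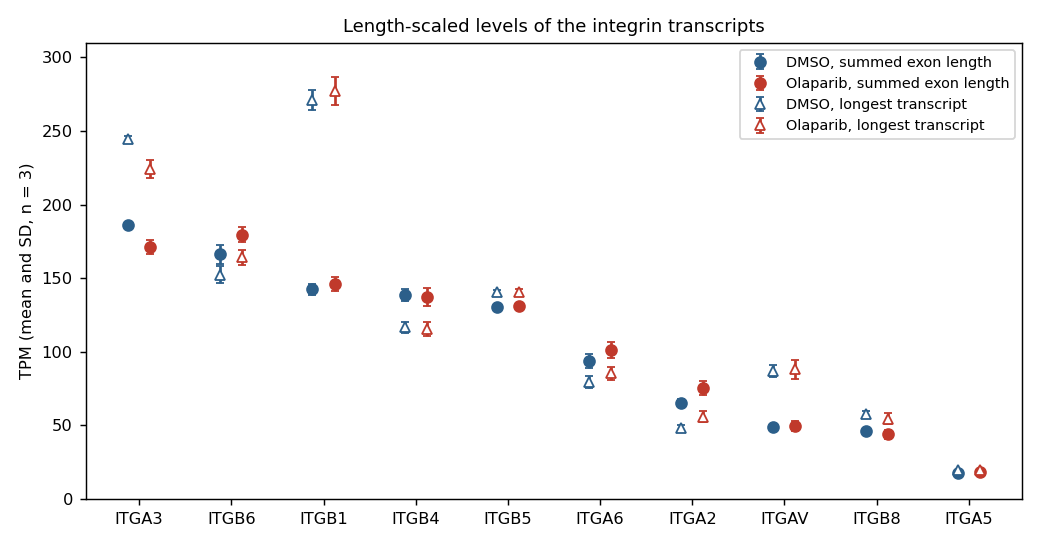
Mean TPM with SD (n = 3) of the 10 integrin members in DMSO (blue) and Olaparib (red) cells, from the summed exon length (filled circles) and from the longest transcript (open triangles), ordered by the DMSO level on the first scale. ITGB1 and ITGAV lie far higher on the second scale, and ITGA5 is the lowest on both.

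As shares of the TPM of all 18 alpha subunits, ITGA2 took 14.9% to 15.6% in the DMSO samples and 17.0% to 18.3% in the Olaparib samples, and ITGA3 42.3% to 44.1% and 38.1% to 41.2%. ITGA6 took 21.1% to 22.5% and 23.1% to 24.2%. These 3 shares did not overlap between the conditions, nor did they with the longest transcript as the length. For ITGA2 and ITGA3 they restate the called changes above on a common scale. ITGA6 was not called, and its own TPM by the summed exonic length overlapped between the conditions. It was 97.1 in Olaparib replicate 3, against 98.5 in DMSO replicate 1. Of the TPM of the 8 beta subunits, ITGB8 took 6.71% to 7.11% in the DMSO samples and 5.95% to 6.64% in the Olaparib samples. These shares did not overlap on either length, although its normalized counts did, as did its own TPM by the summed exonic length. A share also moves with its pool, and the summed TPM of the 8 was 673 ± 7.57 in DMSO cells and 692 ± 11.4 in Olaparib cells (SD, n = 3 each). ITGB6 took 24.1% to 25.5% and 25.4% to 26.3%, which overlapped, though not with the longest transcript (18.9% to 19.9% and 20.1% to 20.5%). The 10 members made up 94.0% ± 0.0485 (SD, n = 3) of the TPM of all 26 integrins in DMSO cells and 93.7% ± 0.164 in Olaparib cells, and the summed TPM of the 26 was 1102 ± 16.1 and 1123 ± 23.3.

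Subunits that pair were compared as ratios of their TPM, each with an exact permutation test on the log2 ratio (two-sided, smallest possible p = 0.1 for 3 samples against 3). ITGA6 stood to ITGB4 as 0.738 ± 0.0516 after Olaparib and 0.679 ± 0.0514 after DMSO (SD, n = 3 each, exact permutation p = 0.3, adjusted over the 3 ratios p = 0.45). The ratio of ITGAV to the sum of ITGB5, ITGB6 and ITGB8 was 0.139 ± 0.00716 and 0.142 ± 0.00424 (n = 3 each, exact permutation p = 0.7, adjusted p = 0.7). ITGB3, which also pairs with ITGAV, was not part of this sum. The sum of ITGA2, ITGA3 and ITGA5 over ITGB1 was 1.82 ± 0.0671 and 1.89 ± 0.0397 (n = 3 each, exact permutation p = 0.2, adjusted p = 0.45). All 3 ratios overlapped between the conditions. The sum over ITGB1 joins ITGA2, called higher, with ITGA3, called lower, and leaves out ITGA6. It therefore does not show the balance of each alpha chain with ITGB1. The ratio of transcripts is not that of proteins at the surface, and its size changes with the length, with 0.680, 0.248 and 1.15 in DMSO cells when the longest transcript was used.

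Of the 16 other integrins, 13 had more than 10 counts in total and 1 rose. Over all genes tested, 2.15% were called higher and 1.21% lower. ITGB3 (ENSG00000259207, chromosome 17, 47253827 to 47313743), another partner of ITGAV, had 1968, 1954 and 2020 normalized counts under Olaparib, against 1662, 1587 and 1580 under DMSO. The groups were separate (1980 ± 34.8 and 1610 ± 45.7, SD, n = 3 each), and the log2 fold change of 0.30 (SE 0.041, edgeR adjusted p = 1.2e-05) was larger than that of any of the 10 epithelial members. The adjusted p was at most 7.8e-04 with 1 sample left out. Another gene annotated on the same strand, which overlaps 33.2% of the exonic bases of ITGB3, had 0 counts. How reads that fall in both genes were handled is not given. These 0 counts therefore do not show that ITGB3 lost none, and its level may be understated. ITGB3 reached 28.2 ± 0.451 TPM after Olaparib and 23.0 ± 0.985 after DMSO by the summed exonic length. With the longest transcript its DMSO level was 19.4 ± 0.805 TPM, beside 19.5 for ITGA5.

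None of the 13 tested fell in edgeR's test (0 called lower, and 0 with DESeq2). At an unadjusted p under 0.05 from edgeR's test, 2 were higher and 2 lower. ITGB2, the beta chain of leukocyte integrins, had the highest DMSO level of the 16 (25.5 ± 0.226 TPM), and its adjusted p was 0.346. ITGAE had 781 ± 18.2 normalized counts under Olaparib, against 872 ± 13.5 under DMSO, with separate groups and an adjusted p of 0.0534 from edgeR's test. Of the 13, 4 had a mean of at least 100 normalized counts. The median log2 fold change of the 13 was 0.081, beside -0.0042 over all genes tested. For these integrins it was 0.15 without DMSO replicate 1, 0.13 without Olaparib replicate 1 and 0.035 without the filter on low counts.

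Adaptors link integrin tails to actin and to kinases, and of the 22 listed 1 rose. Over all genes tested, 2.15% were called higher and 1.21% lower, so 1 call is no result about adaptors as a group. TNS4 (ENSG00000131746, chromosome 17, 40475828 to 40501623), a tensin that binds the beta1 tail, had 505, 531 and 506 normalized counts under Olaparib, against 394, 416 and 415 under DMSO. It was separate in all samples, with a log2 fold change of 0.33 (SE 0.058, edgeR adjusted p = 3.7e-04). Talins, kindlins, vinculin, paxillin, integrin-linked kinase and focal adhesion kinase were not called, and 0 adaptors were called lower (0 with DESeq2). At an unadjusted p under 0.05 from edgeR's test, 6 adaptors were higher and 1 lower. The median log2 fold change of the 22 was 0.044, beside -0.0042 over all genes tested.

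Of 10 hemidesmosome and membrane partners, CD47 and CD9 rose and 0 were called lower (0 with DESeq2). Over all genes tested, 2.15% were called higher and 1.21% lower. At an unadjusted p under 0.05 from edgeR's test, 3 partners were higher and 0 lower. The median log2 fold change of the 10 was 0.059, beside -0.0042 over all genes tested. CD47 (ENSG00000196776, chromosome 3, 108043091 to 108091862), which associates with ITGAV and ITGB3 and binds thrombospondin, had 9584, 8830 and 9267 normalized counts under Olaparib, against 7414, 6655 and 6989 under DMSO (log2 fold change 0.39, SE 0.035, edgeR adjusted p = 2.9e-09). CD9 (ENSG00000010278, chromosome 12, 6199715 to 6238271), a tetraspanin found beside beta1 integrins, had 4622, 4789 and 4774 after Olaparib and 3961, 3964 and 4122 after DMSO (log2 fold change 0.24, SE 0.034, edgeR adjusted p = 2.8e-05). Both were separate between the groups. PLEC, DST, COL17A1 and CD151, which build or stabilize hemidesmosomes, were not called. COL17A1 had only 278 counts in total, and the 95% interval of its log2 fold change, -0.16 to 0.63, reached past log2(1.2).

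Of 25 ligands 24 were tested, VTN being at 0 counts in all libraries, and 2 rose and 1 fell. Over all genes tested, 2.15% were called higher and 1.21% lower. At an unadjusted p under 0.05 from edgeR's test, 8 ligands were higher and 4 lower. THBS1 (ENSG00000137801, chromosome 15, 39581079 to 39599466), which encodes thrombospondin 1, a ligand of CD47 and of ITGAV with ITGB3, had 24037, 22707 and 22778 normalized counts under Olaparib, against 19095, 18063 and 18359 under DMSO (log2 fold change 0.32, SE 0.029, edgeR adjusted p = 2.9e-09). LAMA3 (ENSG00000053747, chromosome 18, 23689453 to 23956222), the alpha chain of laminin-332, to which integrins with ITGA3 or ITGA6 bind, had 19423, 19215 and 18735 after Olaparib and 17058, 17850 and 17047 after DMSO (log2 fold change 0.14, SE 0.028, edgeR adjusted p = 0.00152). LAMB3, the beta chain of the same laminin, had a difference of 0.12 on the log2 scale (edgeR adjusted p = 0.116). LAMA5 (ENSG00000130702, chromosome 20, 62307955 to 62367312), the alpha chain of other basement membrane laminins, had 13208, 14408 and 13152 after Olaparib and 14415, 15893 and 14728 after DMSO (log2 fold change -0.14, SE 0.034, edgeR adjusted p = 0.0106). Its groups were separated by a few counts, its adjusted p was 0.198 with DESeq2 and up to 0.190 with 1 sample left out (DMSO replicate 2), and 2.53% of its exonic bases overlap genes on the opposite strand, among them ADRM1, which had 70.6% as many counts. FN1, the fibronectin gene, changed by 0.0083 on the log2 scale (edgeR adjusted p = 0.936). The median log2 fold change of the 24 was 0.023, beside -0.0042 over all genes tested. For the ligands it was 8.7e-04 without Olaparib replicate 1 and 0.012 without DMSO replicate 1. It was 0.040 without Olaparib replicate 3, 0.036 without Olaparib replicate 2 and 0.038 without DMSO replicate 3.

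**Figure D4:**
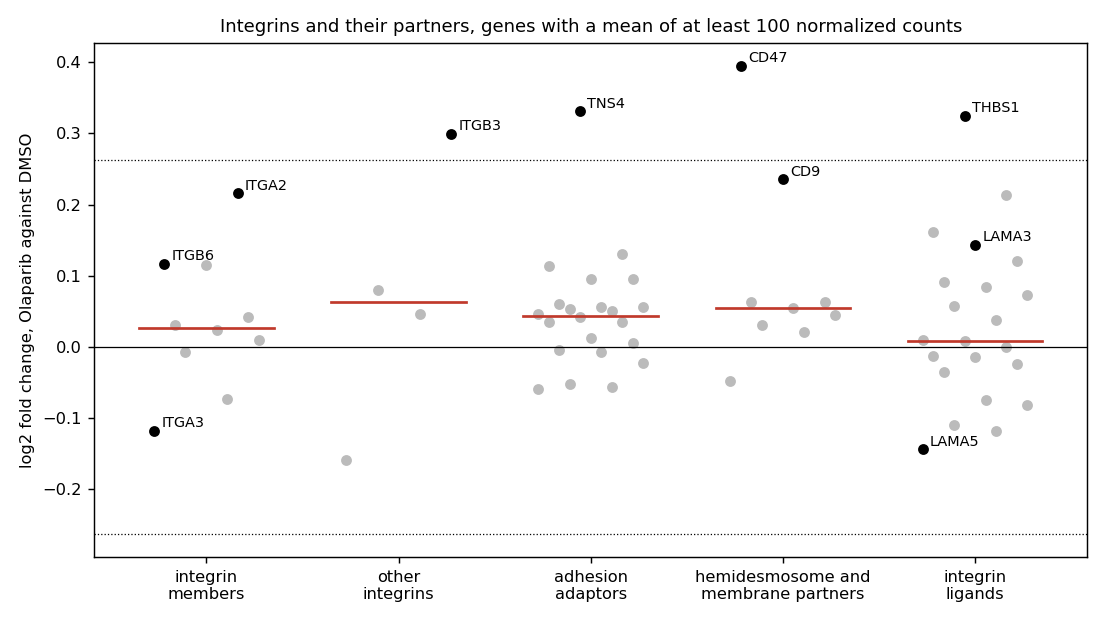
Log2 fold change (Olaparib against DMSO) of the genes in each list with a mean of at least 100 normalized counts (10, 4, 22, 9 and 22 genes from left to right), in black and named where the adjusted p was under 0.05 and in grey otherwise, with red lines for the medians of the genes shown and dotted lines at log2(1.2) on either side of 0. ITGB3, TNS4, CD47 and THBS1 lie above the upper dotted line, and none of the genes shown lies below the lower one.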

How the data were processed

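RNA of 6 samples was measured by poly(A) RNA-seq. The authors trimmed reads with Trimmomatic, mapped them to GRCh38 with STAR, flagged duplicates (Picard) and used featureCounts to count reads per Ensembl gene, and they deposited whole-number counts per gene and sample without normalization. Whether duplicates were removed, and which strand setting was used, is not given in the sources used here. Samples were matched to groups by title and description. Symbols, coordinates and exon lengths were taken from GENCODE release 44, which held 81.9% of the identifiers. The members and gene lists were chosen with earlier results of these data known.

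Genes with more than 10 counts in total were kept (21729), scaled by TMM (factors 0.995 to 1.01) and tested without covariates by the quasi-likelihood test of edgeR 4.0.16 in R 4.3.3 with Benjamini-Hochberg adjustment (adjusted p under 0.05). Normalized counts are counts scaled to the mean effective library size. Standard errors and 95% intervals were derived from the F statistic and its degrees of freedom. Replicates of a condition differed by more than sampling noise (chi-square per degree of freedom 1.81 to 4.11), which does not show how they were separated. Each group was counted as n = 3, as the labels give. The methods describe 3 dishes per condition and call the replicates independent, without saying whether each dish was a replicate. The p values of edgeR set the group difference against variation between these samples, estimated with information shared between genes. Partner ratios were tested by exact permutation with scipy 1.17.1. Named genes were all 10 members, every listed gene with an adjusted p under 0.05, the other integrin with the highest level, and genes given as context after their values were seen. DESeq2 1.42.0, limma 3.58.1 (voom), other scalings, filters, a replicate block and leaving out samples were tried. Scripts were tested on simulated data. The authors' proteomics was not analysed here.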

Additional observations from a re-analysis of the deposited data

How the results depend on the processing

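Called members kept their direction in each alternative run, and ITGA2 kept its call in all. ITGA6 was called with robust dispersion (adjusted p = 0.0335 from edgeR's test), without a filter on low counts (0.0168), without Olaparib replicate 3 (0.0439) and without DMSO replicate 1 (0.0392). With 1 sample left out, 1 to 3 members were called higher and 0 to 2 lower, 1 to 2 adaptors higher, and 0 to 2 ligands lower. The lower count of 0 for members came without Olaparib replicate 3, DMSO replicate 2 or DMSO replicate 3. ITGAE made 1 other integrin lower with upper quartile scaling, library totals or a filter of 1 CPM in 3 samples. Without a filter on low counts 4 ligands were called higher and 3 lower, with library totals 2 were lower, and with DESeq2 0 were lower. With library totals or upper quartile scaling the median log2 fold change was 0.016 or 0.018 for the members and 0.013 or 0.014 for the ligands, and with the CPM filter it was 0.0045 for the ligands. Directions turned in small, uncalled differences. With 1 sample left out, the log2 fold change of ITGAV ranged from -0.016 to 0.077, that of ITGB4 from -0.042 to 0.015 and that of ITGB5 from -0.0058 to 0.020. ITGAV went to -0.016 without Olaparib replicate 1 and -0.0066 without DMSO replicate 2. ITGB4 went to 0.0063 without Olaparib replicate 1, 0.015 without Olaparib replicate 3, 0.014 without DMSO replicate 2 and 0.0060 without DMSO replicate 3. ITGB5 went to -2.1e-04 with library totals and -0.0058 without DMSO replicate 1. The log2 ratio of ITGAV to the sum of ITGB5, ITGB6 and ITGB8 differed by -0.030 and went to 0.013 without Olaparib replicate 2. With 1 sample left out, this difference ranged from -0.055 to 0.013. The difference in log2 ratio ranged from 0.069 to 0.18 for ITGA6 to ITGB4. For ITGA2, ITGA3 and ITGA5 to ITGB1 it ranged from -0.092 to -0.046. Beyond the smaller number of samples, the causes were not tested.

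Whether replicate numbers pair the samples is not stated in the labels. Deviations from the group means correlated at -0.21, 0.26 and -0.33 for same-numbered samples over 11997 genes. Those of differently numbered samples correlated at -0.38 to 0.49. Deviations from a mean of 3 samples depend on each other, so these correlations cannot settle the question. With the replicate number as a block, calls over all genes went from 730 to 1322, and 3 members were called higher and 1 lower (ITGA6 added, adjusted p = 0.00417), 3 adaptors higher, 1 other integrin lower, and 7 ligands higher and 4 lower. In the block the log2 ratio differences were 0.12, -0.030 and -0.061 with no change of direction.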
